A study of Mus musculus with 10 samples.

Results

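Pre-meiotic testis was set against day 3 testis, gene by gene, from expression values that the authors deposited in 1 table for each material. The 2 tables list the same 36806 genes, and the 19138 genes that reached 1 FPKM (fragments of RNA mapped to a gene, scaled to its length and to the depth of the library) in at least 1 of the 4 columns entered the comparison. Of these, 15926 reached 1 FPKM in both tables, 1432 in the pre-meiotic table only and 1780 in the day 3 table only. Just outside that floor lay Gm16790, with a highest value of 0.999978 FPKM, and just inside it A930013B10Rik, with 1.0003 FPKM.

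The mice were C57BL/6 littermates that carried (Ago4+/+) or lacked (Ago4-/-) Ago4, which encodes one of the Argonaute proteins that load small RNAs. Per the labels, day 3 testis is 1 library of each genotype from whole testes taken 3 days after birth, with total RNA taken in Trizol and made into TruSeq RNA libraries, whole testes holding germ, Sertoli, Leydig and other cells together. The pre-meiotic table names no age. The other whole testes in the series are day 8 testes, 1 library of each genotype, but the table was assigned to neither age, and its 2 columns are called pre-meiotic condition 1 and condition 2. No label ties a condition to a genotype in any table, so the 2 columns of a material differ by mouse and by genotype, and the gap between them is the only error available. Ago4 itself stood at 2.53 and 3.34 FPKM in the pre-meiotic columns and 0.897 and 1.23 FPKM in the day 3 columns. These levels were not used to name a genotype, and which part of the gene the Ago4-/- mice lack was not looked up here.

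After birth the mouse seminiferous tubule holds prospermatogonia, germ cells that had stopped dividing in the fetus. They re-enter the cell cycle, move to the edge of the tubule and become spermatogonia, a part of which start to differentiate under retinoic acid, express Kit and Stra8, and go on to meiosis. Around them Sertoli cells divide, mature and later seal the blood-testis barrier, while fetal Leydig cells are gradually replaced by adult ones.

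The gap between materials is given as the log2 ratio of the pre-meiotic mean to the day 3 mean, each with 0.1 FPKM added, so the ratio of a low gene is understated. Beside it stands the range of the same ratio over the 4 pairings of 1 pre-meiotic with 1 day 3 column. A gene is called higher or lower where the ratio is 2-fold or more and both pre-meiotic values lie on the same side of both day 3 values. No test between materials was made and no p-value is given, because the tables were normalized separately. Depth is unknown, since no counts were used. In whole testis, more cells of a type and more RNA per cell cannot be told apart, and a larger share of germ cell RNA lowers the share of everything else.

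By this rule 2441 genes (12.8%) were higher in the pre-meiotic columns and 3642 (19%) were lower. Both pairs of columns were free of overlap, at any fold, for 71.3% of genes. Of the called genes 40.1% were higher. That share was 49.9% after upper quartile scaling and 56.7% after quantile normalization, which raised the median log2 ratio of all genes from -0.10 by 0.17 and by 0.25. Within a table the 2 columns differed by a median of 0.19 on the log2 scale in the pre-meiotic table and 0.39 in the day 3 table, and 9.55% and 12.2% of genes were 2-fold or more apart there. Just inside the fold limit, Cst9, a cystatin of Sertoli cells, had a log2 ratio of 1.003 and was called.

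**Figure D1:**
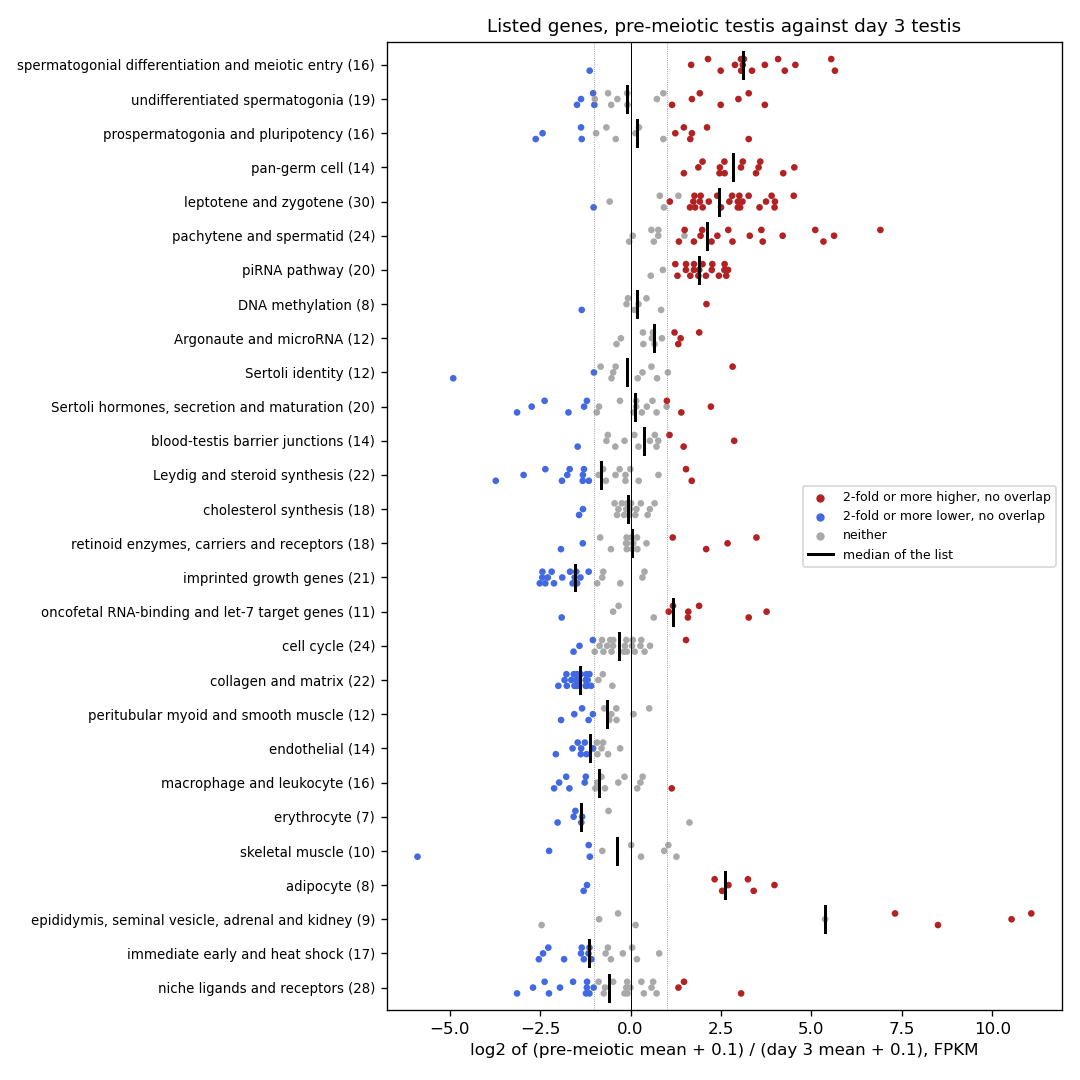
Each point is 1 listed gene that entered, placed by its log2 ratio of pre-meiotic to day 3 mean FPKM, with 0.1 added to each. Rows are 28 gene lists with the number of genes that entered, black bars are medians, and dotted lines mark 2-fold. The lists for meiotic entry, pan-germ cell and leptotene and zygotene genes lie to the right, with medians of 3.12, 2.83 and 2.45, and those for imprinted growth genes and collagen to the left, with medians of -1.55 and -1.41.

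Genes of spermatogonial differentiation and meiotic entry showed the highest median of the germ cell lists. All 16 on the list entered, 15 were higher in the pre-meiotic columns and 1 was lower, with a median log2 ratio of 3.12 (8.67-fold), against -0.10 for all genes. Of the 16, 14 reached 1 FPKM in both tables and 2 in the pre-meiotic table only. Stra8, a gene that retinoic acid induces before meiosis, stood at 124 and 78.6 FPKM in the pre-meiotic columns and 2.15 and 1.99 FPKM in the day 3 columns. The pre-meiotic columns were both far above the day 3 columns, with a log2 ratio of 5.55 (5.13 to 5.89). Meiosin, which encodes the partner of STRA8, stood at 58.2 and 24.003 FPKM against 2.64 and 2.04, a log2 ratio of 4.08 (3.14 to 4.76).

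Transcription factors and RNA regulators of the same step lay on the same side. Dmrtb1, a factor that controls the switch from mitosis to meiosis, had 35.7 and 27.2 FPKM against 0.629 and 0.4299 and the highest ratio of the list, 5.65 (5.23 to 6.08). Meioc, whose protein acts on the RNA of meiotic genes, had 37.5 and 19.4 FPKM against 1.61 and 0.618. The X-linked homeobox gene Esx1 had 31.9 and 18.7 FPKM against 1.295 and 1.15. In each of these genes the lowest pre-meiotic value was above the highest day 3 value.

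Kit, the receptor that marks differentiating spermatogonia, stood at 54.9 and 61.1 FPKM in the pre-meiotic columns and 9.63 and 4.16 FPKM at day 3, a log2 ratio of 3.05 (2.5 to 3.84). Sohlh1, a factor needed for spermatogonia to differentiate, had 34.7 and 41.4 FPKM against 10.1 and 7.03, a smaller gap of 2.14. Ccnd2, which encodes a cyclin of the G1 phase and is also expressed in somatic cells, was the member that was lower, at 61.7 and 68.4 FPKM against 183 and 102. It was no longer called after upper quartile scaling or quantile normalization, or without day 3 condition 1.

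**Figure D2:**
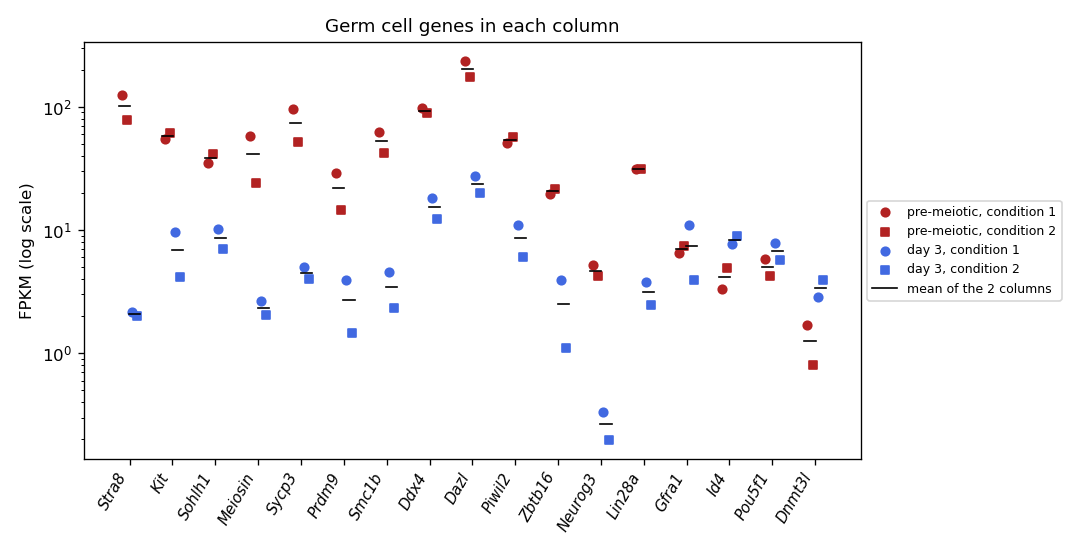
Levels in FPKM, on a log scale, of 17 germ cell genes in each of the 4 columns, with circles for condition 1, squares for condition 2 and black lines for the mean of 2 columns. Stra8 lies at 124 and 78.6 FPKM in the pre-meiotic columns and 2.15 and 1.99 at day 3, while the columns of Gfra1 and Pou5f1 overlap and Id4 and Dnmt3l are lower in the pre-meiotic columns.

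Genes of early meiotic prophase were higher in the pre-meiotic columns for 25 of the 30 on the leptotene and zygotene list (83.3%). All 30 entered and 1 was lower (3.33%), where 12.8% of all genes were higher and 19% lower. Of the 30, 24 reached 1 FPKM in both tables and 6 in the pre-meiotic table only, so that these 6 had to differ. The median log2 ratio was 2.45 (5.45-fold). Genes of the meiotic chromosome axis and its cohesin were among those called. Sycp3, a core protein of that axis, stood at 95.1 and 51.3 FPKM against 5.03 and 3.99 at day 3, a log2 ratio of 3.99 (3.32 to 4.54). Sycp1, which joins the paired axes, had 49.3 and 34.2 FPKM against 2.43 and 2.67. Smc1b, the meiotic cohesin subunit, had 62.7 and 42.1 FPKM against 4.52 and 2.33. For all 3 genes the 2 pre-meiotic columns differed from each other by less than from either day 3 column.

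Genes that make and repair meiotic DNA breaks were called in part, and Spo11, Msh5 and Psmc3ip were not. Prdm9, which marks the sites of recombination, had 28.97 and 14.4 FPKM against 3.94 and 1.46, a log2 ratio of 2.96 (1.85 to 4.22). Dmc1, the meiotic strand exchange protein, had 24.1 and 12.9 FPKM against 4.51 and 5.02, a ratio of 1.94. Spo11, which cuts the DNA, stood at 4.11 and 1.53 FPKM against 1.53 and 0.608, and its columns overlapped. Tex11, an X-linked gene of crossover formation, had the highest ratio of the list, 4.51 (3.91 to 5.15), at 54.5 and 38.1 FPKM against 2.44 and 1.44. Mnd1, a cofactor of strand exchange, was the member that was lower, at 4.36 and 4.61 FPKM against 6.97 and 11.5. It lost its call under median ratio scaling, upper quartile scaling and quantile normalization. The call was also lost with a pseudocount of 1, without pre-meiotic condition 1 and without day 3 condition 2.

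The 2 pre-meiotic columns did not show these genes at the same level. Condition 1 was above condition 2 for 28 of the 30 leptotene and zygotene genes and 14 of the 14 pan-germ cell genes that entered, against 48.5% of all genes. In the authors' deposited table, 10 of the 30 had a q-value of at most 0.05 between the 2 pre-meiotic conditions, where 1.21% of the genes that entered did. In the day 3 columns condition 1 was the higher for 22 of these 30 genes and 13 of the 14 pan-germ cell genes, against 47.5% of all genes, and 9 of the 30 had such a q-value in the authors' deposited table of day 3, where 17.8% of genes did. Both columns nonetheless lay above both day 3 columns for 27 of the 30, so the direction against day 3 does not rest on condition 1.

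Genes listed as pan-germ cell were higher for 14 of 14 that entered, against 12.8% of all genes, with a median log2 ratio of 2.83 (7.09-fold). Whether each of them is expressed at every germ cell stage was not tested. The 15th gene listed, Gcna, was matched by no row. Ddx4, an RNA helicase found in germ cells throughout, stood at 97.2 and 88.1 FPKM against 18.2 and 12.2, a log2 ratio of 2.599 (2.27 to 2.98). Dazl, an RNA-binding protein of germ cells, had 233 and 174 FPKM against 27.3 and 20.01, a ratio of 3.102. Their day 3 levels were well above the floor, so both materials held germ cell RNA. The log2 ratio of Stra8 lay above that of Ddx4 in every pairing, at 5.13 to 5.89 against 2.27 to 2.98. These are 2 picked genes, and their lists lay closer, with medians of 3.12 for meiotic entry and 2.83 for pan-germ cell genes. Dazl and Sohlh2 are on both lists.

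Genes of the piRNA pathway, which silences transposons in germ cells, were higher for 18 of 20 (90%), against 12.8% of all genes. All 20 entered, 2 of them through the pre-meiotic table only, and the median log2 ratio was 1.88 (3.69-fold). Piwil2, a PIWI protein present from the fetal stage, had 50.7 and 56.9 FPKM against 11.1 and 6.002, a ratio of 2.64. Piwil4, the PIWI protein of prospermatogonia, had 5.81 and 6.77 FPKM against 3.43 and 1.795, a ratio of 1.24. Piwil1, the PIWI protein of pachytene cells, stood at only 2.296 and 2.3004 FPKM against 0.858 and 0.368. Henmt1, which methylates the ends of piRNAs, and Tdrd1, a scaffold, had ratios of 2.69 and 2.59.

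Of the 12 genes on the Argonaute and microRNA list 4 were higher (33.3%, against 12.8% of all genes) and none was lower, with a median of 0.64. Without day 3 condition 1, 7 were higher, and without day 3 condition 2, 2 were, with medians of 1.16 and 0.31. Ago3 had 9.38 and 13.4 FPKM against 3.55 and 2.42, and Ago4 had a log2 ratio of 1.38 (0.98 to 1.79). Dicer1, which cuts microRNA precursors, had 47.9 and 44.5 FPKM against 25.2 and 11.7, a ratio of 1.32. Ago2 stood at 8.94 and 8.56 FPKM against 9.61 and 1.98, so its 2 day 3 columns lay on both sides of the pre-meiotic ones.

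Promoters of some of these genes are shown because 2 motifs are known from the regulation of meiotic genes, and 4 that hold both were picked. Of the germ cell list members, Syce2, Tex12 and Tnrc6b also hold both and are not shown. Tex12 was called higher with a log2 ratio of 1.73, while Syce2 (0.81) and Tnrc6b (0.87) were not called. The motifs are CACGTG, the palindromic E-box, and TCCCGC, the core bound by E2F6, searched on both strands in the 250 bases before the gene start. The capitals mark every match. The sequences are from RefSeq, build GRCm38.p6, read 5′ to 3′ on the strand of the gene. For Hormad1, which has 2 promoters there, only the first is shown and described. Sycp3 lies at chr10:88459337-88459586 on the plus strand, Ddx4 at chr13:112652311-112652560 on the minus strand, Hormad1 at chr3:95559427-95559676 on the plus strand and Mael at chr1:166238745-166238994 on the minus strand.
Sycp3: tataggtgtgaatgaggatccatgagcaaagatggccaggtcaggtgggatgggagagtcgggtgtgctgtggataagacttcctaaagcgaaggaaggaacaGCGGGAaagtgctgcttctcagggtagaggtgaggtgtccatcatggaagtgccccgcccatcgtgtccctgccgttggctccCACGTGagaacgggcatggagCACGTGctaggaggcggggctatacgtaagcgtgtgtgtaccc
Ddx4: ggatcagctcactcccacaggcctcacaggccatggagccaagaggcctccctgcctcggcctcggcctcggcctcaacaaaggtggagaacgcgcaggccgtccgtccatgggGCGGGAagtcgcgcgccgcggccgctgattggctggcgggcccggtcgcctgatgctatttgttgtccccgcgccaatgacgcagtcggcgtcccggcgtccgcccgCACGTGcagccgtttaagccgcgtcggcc
Hormad1: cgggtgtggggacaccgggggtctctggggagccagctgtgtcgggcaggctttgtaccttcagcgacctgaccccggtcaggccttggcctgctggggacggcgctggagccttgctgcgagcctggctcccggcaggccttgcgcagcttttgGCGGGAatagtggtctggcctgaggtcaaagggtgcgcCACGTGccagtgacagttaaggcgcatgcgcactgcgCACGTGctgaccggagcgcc
Mael: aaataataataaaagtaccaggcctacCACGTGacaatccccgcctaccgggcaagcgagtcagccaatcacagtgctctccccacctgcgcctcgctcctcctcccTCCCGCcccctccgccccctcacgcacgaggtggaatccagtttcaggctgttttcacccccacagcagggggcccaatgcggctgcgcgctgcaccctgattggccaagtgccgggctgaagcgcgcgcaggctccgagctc

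Sycp3 and Hormad1 each hold 2 E-boxes and 1 E2F6 core, and Ddx4 and Mael hold 1 of each. In Sycp3 the E-boxes begin 64 and 43 bases before the start, in Hormad1 57 and 20, in Ddx4 29 and in Mael 223. Hormad1, a protein of unpaired meiotic axes, stood at 16.6 and 10.5 FPKM against 3.17 and 2.73, and Mael, a piRNA pathway protein, at 102 and 92.9 FPKM against 29.2 and 23.8. Over the lists, the E-box was in 8 of 17 piRNA pathway genes with a promoter (47.1%), in 5 of 12 pan-germ cell genes (41.7%) and in 7 of 24 leptotene and zygotene genes (29.2%), where 6.86% of all 27025 genes held it. The E2F6 core was in 23.5%, 25.0% and 41.7% of the same lists and in 18.8% of all genes, and in 72.7% of the Argonaute and microRNA list. Of the 13055 genes that entered and were not called 8674 had a promoter, and 9.79% of these held the E-box and 33.6% the core, more than in the piRNA and pan-germ cell lists for the core. The window of Stra8 holds neither motif. The lists share members, Ddx4 and Mael among them. The check is void for the meiotic entry list, where 12 of 16 genes had a promoter, and for the genes that entered. Among these, those 8674, 1579 of 2441 higher and 1631 of 3642 lower genes had one. With that limit, the E-box was in 10.1% of the higher and 7.85% of the lower genes, and the core in 30.1% and 30.5%. The higher genes as a whole thus lay near the genes not called. A match describes these letters and is no evidence of binding.

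Genes of undifferentiated spermatogonia did not move together. Of 22 on the list 19 entered, 7 were higher (36.8%) and 4 were lower (21.1%), against 12.8% and 19% of all genes. The lower share was thus near that of all genes. The median log2 ratio of -0.09 turned positive after upper quartile scaling (0.08) and quantile normalization (0.13). The median was 0.80 without day 3 condition 1, -0.55 without day 3 condition 2 and 0.73 with a floor of 5 FPKM. The sign of the median thus depends on which day 3 column is kept. The lower genes were 2 under each of the 3 other scalings and without pre-meiotic condition 1. Zbtb16, a transcription factor that maintains spermatogonia, had 19.6 and 21.5 FPKM against 3.94 and 1.098, a ratio of 2.98 (2.29 to 4.17). Neurog3, which marks progenitors about to differentiate, had 5.16 and 4.201 FPKM against 0.332 and 0.198, a ratio of 3.71. Gfra1, the receptor for the stem cell factor GDNF, stood at 6.54 and 7.41 FPKM against 10.9 and 3.96, and the day 3 columns spanned both pre-meiotic values.

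On the lower side of that list were Id4, at 3.305 and 4.93 FPKM against 7.73 and 8.97, and Utf1, Spry4 and Dusp6. Id4, a marker of stem spermatogonia, had a ratio of -1.002 and was not called under any of the 3 other scalings. Utf1, a chromatin factor of early spermatogonia, had 1.37 and 1.78 FPKM against 4.404 and 4.05. Spry4 and Dusp6, feedback inhibitors of receptor tyrosine kinase signalling that somatic cells also express, had ratios of -1.48 and -1.04.

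The prospermatogonia and pluripotency list was split in the same way, with 16 of 20 genes entered and a median of 0.18. Of the 16, 6 were higher (37.5%) and 4 lower (25%), against 12.8% and 19% of all genes. Pou5f1, a pluripotency factor kept in early germ cells, had 5.86 and 4.19 FPKM against 7.76 and 5.67, and the columns overlapped. Dnmt3l, the cofactor of de novo DNA methylation in prospermatogonia, was lower at 1.71 and 0.809 FPKM against 2.83 and 3.897, a ratio of -1.35 (-2.14 to -0.697). Sox2 and Etv4 were lower with ratios of -2.62 and -2.43, Sox2 from a day 3 level of 1.496 and 0.988 FPKM. Lin28a, an RNA-binding protein that blocks let-7 microRNAs, was higher at 31.03 and 31.02 FPKM against 3.79 and 2.48, a ratio of 3.26.

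Among the 8 DNA methylation genes, Dnmt3b, a de novo methyltransferase, was higher at 26.1 and 26.9 FPKM against 7.204 and 5.04, a ratio of 2.097, and Dnmt3l was lower. The other 6 were not called, so 12.5% were called each way, against 12.8% higher and 19% lower of all genes. Dnmt3a stood at 35.3 and 36.2 FPKM against 42.2 and 35.2.

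Lin28b, the relative of Lin28a, was higher too, at 13.3 and 9.89 FPKM against 0.955 and 0.574, with a ratio of 3.76. On the list of oncofetal RNA-binding and let-7 target genes 11 of 12 entered, 7 were higher and 1 was lower, with a median of 1.17. Trim71, a let-7 target, had 9.08 and 10.6 FPKM against 4.26 and 0.901. Igf2bp2 was the lower one, at 6.81 and 10.8 FPKM against 37.95 and 28.7. Hmga2 did not enter, with 0.105 and 0.131 FPKM against 0.739 and 0.861.

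Of 26 genes on the pachytene and spermatid list 24 entered and 17 were called higher, with a median of 2.11, but 14 of the 24 entered through the pre-meiotic table only and had to differ. The 4 with the highest ratios were Prm2, Adam3, Prm1 and Tnp2. Prm1 and Prm2, the protamines that pack sperm DNA, were low but present, with Prm2 at 16.6 and 16.6 FPKM in the pre-meiotic columns and 0 and 0.0787 FPKM at day 3. In leptotene/zygotene cells of mice aged 70 days, which the series also holds, Prm2 was at 14183 and 18799.8 FPKM.

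For 11 such late genes (the protamines Prm1 and Prm2, the transition proteins Tnp1 and Tnp2, Pgk2, Smcp, Adam3, Odf1, Ldhc, Crisp2 and Cypt12, chosen after their values were seen), the pre-meiotic mean was 0.101% to 0.726% of the leptotene/zygotene mean, with a median of 0.138%. The day 3 means were 0% to 0.0371% of it. Without the genes whose pre-meiotic mean was below 1% of the higher of the leptotene/zygotene and pachytene means, 3 members of the list were called higher in place of 17, with a median of 0.77. The counts of the meiotic entry, pan-germ cell and leptotene and zygotene lists were 15, 14 and 25 with and without those genes. In all, 161 of the 2441 higher genes were below that limit.

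The 10 highest ratios by the naming rule belonged to Svs4, Svs2, Svs6, Pate4, Sva, Svs3a, Svs1, Kap, Svs3b and Spinkl. The Svs genes, Pate4 and Sva encode secreted proteins of the seminal vesicle, an accessory gland, and Kap is an androgen-regulated gene of the kidney. Svs4 stood at 333 and 232 FPKM in the pre-meiotic columns and 0 and 0.0619 FPKM at day 3, and Svs2 at 178 and 118 FPKM, listed at 0 in both day 3 columns. Svs4 was also at 182 and 164 FPKM in leptotene/zygotene cells and 179.5 and 448 FPKM in pachytene cells. For 7 Svs genes with Pate4 and Sva, 9 in all, the pre-meiotic mean was 131% to 167% of the leptotene/zygotene mean. On the list of epididymis, seminal vesicle, adrenal and kidney genes, 9 of 15 entered, and the 4 called higher were Svs2, Svs4, Svs5 and Pate4. The epididymal markers Lcn5 and Lcn8 were listed at 0 in both pre-meiotic columns, Crisp1 stood at 10.4 and 0 FPKM, and the kidney and adrenal markers Umod, Slc12a1, Cyp11b1 and Cyp11b2 did not pass 1 FPKM there, while Cyp21a1 stood at 0.226 and 1.68 FPKM. Among genes with status OK in both tables, 1 of 5 was called higher, with a median of -0.35 in place of 5.38. That status depends on the day 3 level itself, so this filter is no check on genes listed at or near 0 there. Where the seminal vesicle RNA in these columns came from was not tested.

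**Figure D3:**
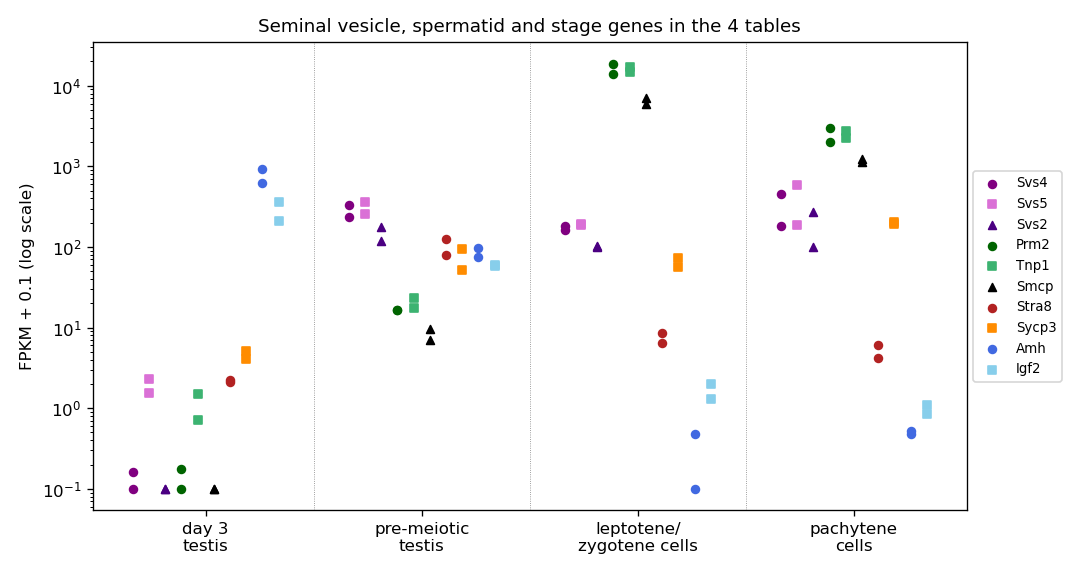
Levels in FPKM plus 0.1, on a log scale, of 10 genes in both columns of each of the 4 tables, which were normalized separately. Svs2, Svs4 and Svs5 lie at 178 and 118, 333 and 232 and 360.5 and 257 FPKM in the pre-meiotic columns and Svs5 at 2.23 and 1.46 FPKM at day 3, while Prm2 lies at 16.6 and 16.6 FPKM in the pre-meiotic columns and 14183 and 18799.8 FPKM in leptotene/zygotene cells.

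Adipocyte genes stood apart between the 2 pre-meiotic columns as well. Of 10 on the list 8 entered, 6 were higher and 2 lower, 5 of the 8 entered through the pre-meiotic table only, and condition 1 was above condition 2 in 8 of 8. Summed over the list, the columns held 78.0 and 34.2 FPKM against 40.2 and 61.8 at day 3. Adipoq, a hormone of fat cells, had 4.59 and 3.18 FPKM against 0.264 and 0.28998. Car3, an enzyme abundant in fat and muscle, had 19.4 and 6.48 FPKM against 0.0855 and 0.201. Plin1 and Lpl were lower, with ratios of -1.297 and -1.205, and the median of the list, 2.62, was -1.20 with a floor of 5 FPKM.

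The next highest ratios were read after leaving out the Svs genes, Pate4, Sva, Kap and Spinkl. Genes below 1% of their level in adult cells, predicted genes and loci shorter than 1000 bases were left out too. No other gene was left out for its tissue, so further seminal vesicle or fat genes can remain. Sept14, a septin, had 21.9 and 18.5 FPKM against 0.118 and 0, and Spink3 20.9 and 17.9 FPKM against 0.127 and 0. Ceacam10 had 22.4 and 16.6 FPKM against 0.189 and 0.07795. Like the Svs genes, Spink3 and Ceacam10 were also present in leptotene/zygotene cells, with means of 13.2 and 11.8 FPKM. In pachytene cells their means were 21.8 and 25.7 FPKM. Butr1, at 14.4 and 13.4 FPKM against 0.155 and 0.141, Car3, Dmrtb1 and Stra8 followed. After them came Tex16, Prss50, a protease of the testis, and the X-linked genes Tbx22, Tex13 and Tex11. This selection was made after the values were seen. In leptotene/zygotene cells Butr1 was at 0.498 and 0.533 FPKM.

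Genes that define Sertoli cells, the nurse cells of the tubule, were called about as often as all genes. Of 12 identity genes 1 was higher (8.33%) and 2 were lower (16.7%), near the 12.8% and 19% of all genes. The median log2 ratio was -0.11, which moved to 0.07 after upper quartile scaling and 0.08 after quantile normalization. Sox9, which specifies the Sertoli cell, had 52.3 and 48.4 FPKM in the pre-meiotic columns against 66.1 and 68.1. Wt1, which maintains it, had 145 and 153 FPKM against 134 and 103. Neither reached 2-fold. Gata1, a factor that postnatal Sertoli cells switch on, was higher at 28.04 and 23.02 FPKM against 3.13 and 3.93, a ratio of 2.82 (2.52 to 3.12). Ptgds, a prostaglandin synthase, was lower at 7.92 and 5.28 FPKM against 161 and 240.1, a ratio of -4.902. Nr5a1, a steroidogenic factor also found in Leydig cells, was lower with a ratio of -1.01 and was not called under the other scalings.

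Secreted Sertoli products split by gene. Amh, the hormone that immature Sertoli cells make in quantity, was lower at 75.6 and 98.3 FPKM against 617 and 916, a ratio of -3.14 (-3.598 to -2.65). Inha and Inhba, subunits of inhibin and activin, were lower with ratios of -1.72 and -2.38, Inhba from 71.5 and 21.1 FPKM at day 3. Krt18, a keratin of immature Sertoli cells, had 2.62 and 2.47 FPKM against 14.3 and 20.7.

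On the higher side Aard had 888 and 927 FPKM against 362 and 325, and Tsx 5.15 and 6.699 FPKM against 1.097 and 1.29. Fshr, the receptor for follicle-stimulating hormone, had 13.98 and 18.2 FPKM against 16.1 and 12.8, and Clu, a major secreted protein of Sertoli cells, had 1915 and 2001 FPKM against 1498 and 1371. In all, 20 of 22 genes on this list entered, 3 were higher (15%) and 6 lower (30%), against 12.8% and 19% of all genes. After quantile normalization 8 were higher and 5 lower, and condition 2 was above condition 1 in the pre-meiotic table for 19 of the 20.

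Junction genes of the blood-testis barrier were mostly near their day 3 level. Among 14 that entered of 15, 3 were higher (21.4%) and 1 lower (7.14%), against 12.8% and 19% of all genes. Without day 3 condition 1, 5 were higher. Cldn11, the claudin of the Sertoli barrier, was the farthest, at 191 and 187 FPKM against 24.2 and 27.4, a ratio of 2.86 (2.76 to 2.97). Cgn, an adaptor of tight junctions, was higher with a ratio of 1.47. Cldn5, which is also an endothelial gene, was lower at 5.53 and 5.004 FPKM against 13.1 and 16.3, and Ocln and Gja1 were not called.

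**Figure D4:**
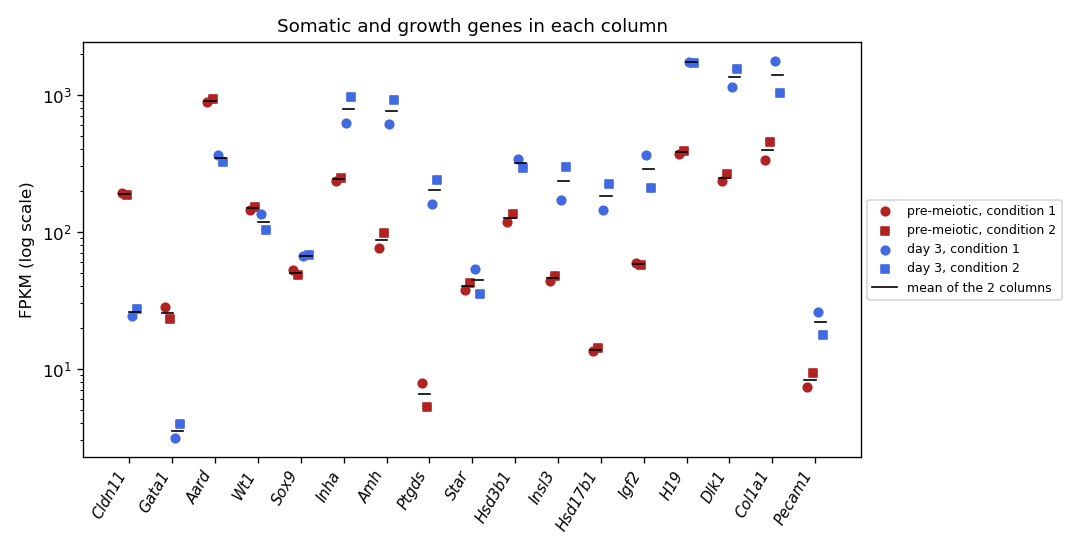
Levels in FPKM, on a log scale, of 17 somatic and growth genes in each of the 4 columns, with circles for condition 1, squares for condition 2 and black lines for the mean of 2 columns. Cldn11, Gata1 and Aard are higher in the pre-meiotic columns, Amh lies at 75.6 and 98.3 FPKM against 617 and 916 at day 3, and Wt1, Sox9 and Star are within 2-fold of day 3.

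Leydig and steroid synthesis genes were lower for 10 of 22, all of which entered, and higher for 2, with a median log2 ratio of -0.82. Insl3, a Leydig hormone of testis descent, had 43.6 and 47.9 FPKM against 172 and 298, a ratio of -2.36 (-2.77 to -1.84). Hsd17b1, an enzyme that fetal Sertoli cells express, showed the largest gap of the list, 13.4 and 14.1 FPKM against 145 and 223, a ratio of -3.73. Hsd3b1 had 117 and 136 FPKM against 340.3 and 291 and Cyp11a1, which starts steroid synthesis, 62.3 and 59.2 FPKM against 198 and 211.

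Other steps of the pathway were not called. Star, which moves cholesterol into mitochondria, had 37.8 and 42.3 FPKM against 53.2 and 35.3, and Cyp17a1 had 143 and 121 FPKM against 217 and 73.8. In both the day 3 columns spanned the pre-meiotic values. Hsd3b6, an enzyme of adult Leydig cells, was at 0.157 and 0.441 FPKM against 3.17 and 2.83, and Hsd17b3, the main testosterone-forming enzyme of adult cells, at 74.2 and 91.8 FPKM against 189 and 217. Vcam1 and Hsd11b1 were the 2 higher genes, with ratios of 1.69 and 1.53. Hsd3b1 and Hsd17b3 were no longer called after quantile normalization. Of 18 cholesterol synthesis genes that entered, Fdps and Mvk were lower (11.1%, against 19% of all genes) and 16 were not called.

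Among 18 retinoid genes that entered of 21, 4 were higher (22.2%) and 2 lower (11.1%), against 12.8% and 19% of all genes. Crabp1, a carrier of retinoic acid found in spermatogonia, had 83.4 and 78.4 FPKM against 8.93 and 5.41, a ratio of 3.48. Aldh1a2, which makes retinoic acid, had 51.7 and 37.7 FPKM against 15.8 and 23.95, a ratio of 1.16, and Cyp26b1, which degrades it, had 64.3 and 73.1 FPKM against 63.6 and 37.7 and was not called. Rbp4 and Cyp26a1 were higher with ratios of 2.68 and 2.09. Crabp2 and Dhrs3, both induced by retinoic acid in other tissues, were lower with ratios of -1.92 and -1.32.

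Of 28 genes for niche ligands and their receptors, 3 were higher (10.7%) and 11 lower (39.3%), against 12.8% and 19% of all genes. After quantile normalization 7 were lower. Without day 3 condition 1, 5 were higher. The receptor Kit and the activin and BMP receptors Acvr2b and Bmpr1b were the 3 higher ones. Gdnf, the Sertoli factor that maintains stem spermatogonia, was lower at 5.58 and 7.297 FPKM against 14.7 and 15.3, and its receptor genes Gfra1 and Ret were not called. Kitl, the ligand of Kit, had 95.4 and 113 FPKM against 78.9 and 47.8, a ratio of 0.72 that was not called. Cxcl12, Pdgfa and Wnt4, ligands made by somatic cells, were lower with ratios of -1.95, -2.26 and -2.697.

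Imprinted growth genes were lower in the pre-meiotic columns for 15 of 21, all of which entered, and none was higher. The median log2 ratio was -1.55 (2.92-fold lower), and 13 were still called lower after quantile normalization. Igf2, a fetal growth factor, had 59.3 and 57.7 FPKM against 363 and 209, a ratio of -2.29 (-2.65 to -1.82). H19, the noncoding RNA next to Igf2, had 372 and 389 FPKM against 1750.0 and 1706, a ratio of -2.18. Dlk1, a signal regulator of fetal tissues, had 234 and 263 FPKM against 1149 and 1547, a ratio of -2.44. In these 3 genes no pre-meiotic value came near a day 3 value.

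The genes called lower included paternally and maternally expressed ones. Mest had the lowest ratio, -2.51, at 34.8 and 37.7 FPKM against 243 and 171, and Cdkn1c, a cell cycle inhibitor expressed from the maternal copy, had 10.5 and 11.1 FPKM against 52.7 and 65.8. Peg10 stood at 23.9 and 25.8 FPKM against 19.5 and 18.6 and was not called, nor were Phlda2, Peg3, Igf2r, Asb4 and Sgce. In leptotene/zygotene cells Igf2 was at 1.897 and 1.19 FPKM.

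Few proliferation genes were called. Of 24 cell cycle genes 1 was higher (4.17%) and 3 lower (12.5%), against 12.8% and 19% of all genes. Their median of -0.33 became 0.05 after quantile normalization. Mki67, which marks dividing cells, had 57.8 and 50.5 FPKM against 55.1 and 33.1, and Top2a had 184 and 154 FPKM against 184 and 288. Ccne2, a cyclin of S phase entry, was higher at 53.05 and 34.5 FPKM against 16.9 and 13.2. Cdk1, Aurkb and Birc5, genes of mitosis, were lower, with ratios of -1.58, -1.41 and -1.04, and Birc5 lost its call under the other scalings.

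Collagen genes were mostly lower, and endothelial and myoid genes in part. Of 22 collagen and matrix genes 19 were lower and none higher, with a median of -1.41, but 7 were called lower after quantile normalization. Col1a1, the main fibrillar collagen, had 337 and 452 FPKM against 1759 and 1037, a ratio of -1.83 (-2.38 to -1.199). Pecam1, a surface protein of endothelium, had 7.39 and 9.27 FPKM against 25.9 and 17.7, a ratio of -1.38, and 8 of 14 endothelial genes were lower. Sox18, a factor of vessel growth, had 10.05 and 10.9 FPKM against 38.99 and 49.6. Of 12 peritubular myoid genes 5 were lower, 3 after upper quartile scaling and 1 after quantile normalization. Acta2, the smooth muscle actin, had 385 and 413 FPKM against 601 and 599 and was not called. Collagen genes were higher in condition 2 than in condition 1 of the pre-meiotic table in 22 of 22.

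Leukocyte genes were split. Among 16 macrophage and leukocyte genes that entered of 17, 6 were lower and 1, Mrc1, was higher, and Csf1r, the receptor that defines macrophages, had 5.81 and 6.62 FPKM against 6.38 and 7.62. Without day 3 condition 1, 10 leukocyte genes were lower, and without day 3 condition 2, 3 were. The adult globin Hba-a1 had 158 and 229 FPKM against 524 and 592, and 5 of 7 erythrocyte genes that entered were lower, 2 after quantile normalization. The embryonic globin Hbb-bh1 was listed at 0 in all 4 columns. Hba-a1 and Hba-a2, and Hbb-b1 and Hbb-b2, are near-identical copies between which reads can be split.

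Skeletal muscle genes were few and low, with 4 of 10 lower, 2 after upper quartile scaling or quantile normalization, and none higher. Mylpf stood at 46.2 and 5.32 FPKM against 9.24 and 15.6.

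Stress-responsive genes, which tissue handling can raise, were lower in part. Of 17 immediate early and heat shock genes 10 were lower in the pre-meiotic columns and none higher, with a median of -1.14. After subtracting the median of genes of like locus span 5 were lower and 1 higher, with a median of -0.68. Their sum was 206 and 242 FPKM against 499 and 655 at day 3. Jund, Fosb and Egr1 had ratios of -2.27, -2.54 and -1.14, while Fos stood at 3.82 and 5.005 FPKM against 4.76 and 8.21 and was not called. The part of handling in the other lower lists was not tested.

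The lowest ratios by the naming rule belonged mostly to rows named for small RNAs. They were Uck2 (a row of 93 bases beside the main row of the gene), n-R5s109, 4 rows named U6, Ccl17, Y_RNA, Pnmt and 5S_rRNA. Pnmt, the enzyme that makes adrenaline, had 1.0998 and 0.889 FPKM against 211 and 354 at day 3. Th, an enzyme earlier in that pathway, was at 0.118 and 0.116 FPKM at day 3, and Dbh at 0.0755 and 0, both markers of the adrenal medulla. Cyp21a1 and Cyp11b1, enzymes of the adrenal cortex, were at 0.965 and 10.4 FPKM and 1.66 and 0.687 FPKM at day 3, and neither was called. Ccl17, a chemokine, was listed at 0 in the pre-meiotic columns and at 21.2 and 59.8 FPKM at day 3.

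Further named genes among the lowest were chosen after their values were seen. Cbln1 had 4.198 and 6.12 FPKM against 108 and 178, Lgals7 37.8 and 44.99 FPKM against 526 and 1043, and Pdyn, the precursor of dynorphins, 0.384 and 0.388 FPKM against 20.3 and 18.2. S100a8, a calcium-binding protein of neutrophils, had 1.097 and 0 FPKM against 11.998 and 43.3, and its partner S100a9 0.674 and 0.454 FPKM against 12.7 and 38.6. Acta1, the skeletal muscle actin, had a ratio of -5.89, in a row whose locus spans 4435365 bases.

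Short loci lay lower as a class. Of 208 rows of up to 150 bases that entered, 9 were higher and 68 lower, with a median of -4.70, and 147 and 150 of all such rows reached 1 FPKM at day 3 against 53 and 56 in the pre-meiotic columns. Among 486 genes with small nucleolar RNA or microRNA names 12 were higher and 235 lower. Of 79 ribosomal protein genes 4 were higher and 48 lower, with a median of -1.15, and Rps29 had 47.7 and 42.4 FPKM against 612 and 975. Many of these have near-identical processed copies. Among loci of 1000 bases or more the counts were 2267 higher and 2976 lower. The part of fragment length or library preparation in this was not tested.

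X-linked genes were called higher in 269 of 1098 (24.5%) and lower in 263 (24.0%), where 12.0% and 18.7% of 18027 autosomal genes were. In loci of 1000 bases or more the X shares were 27.9% higher and 16.5% lower, against 12.2% and 17.1% on autosomes. Leaving out the X-linked members of the germ cell lists kept 1090 of the 1098 genes, with 261 (23.9%) called higher. So few were removed that the share could hardly change, and the part of unlisted germ cell genes was not tested. The X carries many families expressed in spermatogonia and repeated along the chromosome, so reads can be split between copies. Of 16 Xlr genes 14 were higher, of 8 Magea genes 7 and of 7 Rhox2 genes 7. Rhox4 genes lay the other way, with 3 of 6 lower and none higher.

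X-linked germ cell genes outside those families were among them. Taf7l, a transcription factor subunit of the testis, had 194 and 138 FPKM against 16.1 and 12.2, and Nxf2, an RNA exporter, 72.1 and 56.5 FPKM against 8.97 and 5.54. Tex13 had 68.99 and 59.98 FPKM against 3.48 and 1.92 and Usp26, a ubiquitin protease, 36.3 and 32.4 FPKM against 2.93 and 0.569. Rhox13, a homeobox gene of spermatogonia, had 47.5 and 31.99 FPKM against 4.03 and 3.55.

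The Y carried 13 genes that entered, of which 9 were higher and none lower. Ube1y1, a ubiquitin-activating enzyme of spermatogonia, had 73.6 and 59.4 FPKM against 12.7 and 8.87, a ratio of 2.61. Zfy1, a zinc finger factor, had 2.03 and 2.62 FPKM against 0.259 and 0.0768, and Usp9y 3.902 and 4.15 FPKM against 0.637 and 0.191. Rbmy1a1 and the 4 other rows of its neighbourhood, with ratios from 2.56 to 2.82, may share reads. Ddx3y, which somatic cells also express, had 23.7 and 23.4 FPKM against 23.4 and 16.5, and Eif2s3y 123 and 106 FPKM against 98.5 and 93.5. Neither was called.

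**Figure D5:**
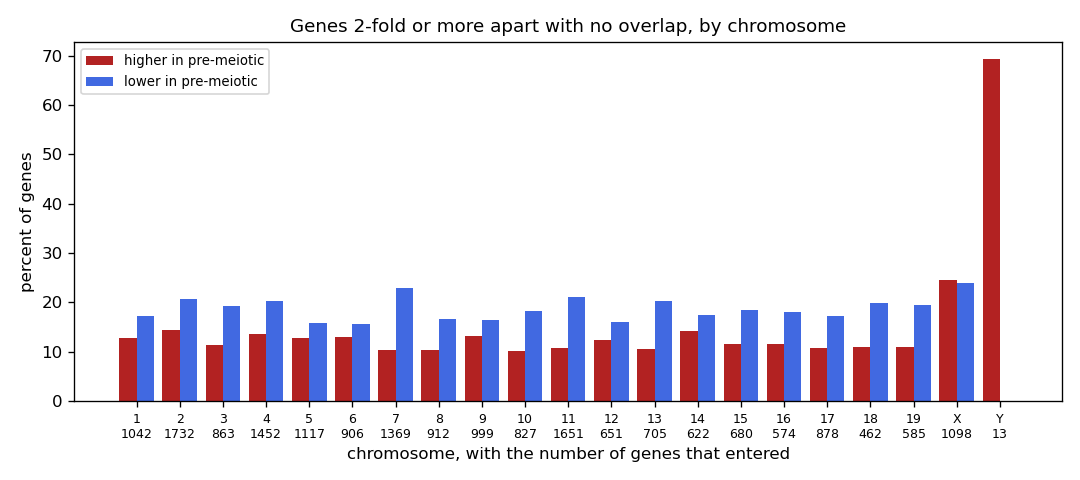
Percent of the genes that entered on each chromosome that were called higher (red) or lower (blue) in the pre-meiotic columns, with the number of genes under each name. The X shows 24.5% higher and the Y 69.2% of 13 genes, while each autosome lies between 10.2% and 14.3% higher.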

How the data were processed

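The authors deposited FPKM per gene for 2 conditions in each table, per the file headers, together with a log2 fold change and a q-value between the conditions. The submitters' processing notes name Cuffdiff, Cufflinks 1.1.0, Bowtie 0.12.7 and TopHat 1.3.0, with no order given. The genome build and strand setting were not stated there or in the file headers. Reads of overlapping or antisense genes may therefore be mixed. The log2 column holds an extreme value where a condition is 0. Small RNA libraries were not analysed here.

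Tables were joined by gene ID with pandas 2.3.3. Members and lists were chosen with earlier results of these data known. The means, ratios, calls and 28 gene lists (465 symbols, 3 of them found in no row) are as the report describes. The procedure was tested on simulated data. There all columns shared a common scale when calls were scored, so that test does not cover calls between separately normalized tables. Named were Ago4, the 10 highest and 10 lowest called genes with at least 5 FPKM in both columns of the higher material (predicted, clone, microRNA and small nucleolar names left out), up to 4 called members a list, and a fixed set of markers; others were chosen after their values were seen. Some genes that the rule names are not reported here. Alternatives were other pseudocounts, floors, folds and scalings, status OK in both tables, and leaving out each column. Promoters were matched to genes by symbol. Depth is unknown. No test between materials was made across separately normalized tables.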

Additional observations from a re-analysis of the deposited data

Results flagged for a closer look

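Seminal vesicle genes were present in tables outside the comparison, in purified cells where day 3 testis was at or near 0. In leptotene/zygotene cells the mean levels of Svs2, Svs4 and Svs5 were 102, 173 and 189.8 FPKM, and in pachytene cells 184, 314 and 386 FPKM. Day 3 testis held Svs5 at 2.23 and 1.46 FPKM. The source of these reads was not tested.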

How the results depend on the processing

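The list medians for meiotic entry, pan-germ cell, leptotene and zygotene and piRNA genes stayed at 1.75 or more, and that for imprinted growth genes stayed between -1.70 and -1.16, under every pseudocount, floor, scaling, status filter and column left out. With a floor of 5 FPKM 1468 genes were higher. With a fold of 1.5, 4081 genes were higher and 5509 lower, and with a fold of 4, 853 and 1535. Leaving out 1 column gave 2135 to 3319 higher and 3621 to 4229 lower genes. The adipocyte median became -1.20 with a floor of 5 FPKM, and the log2 ratio of Actb, a cytoskeletal actin (859.6 and 823 FPKM against 1783 and 1817), went from -1.097 to 0.27 after quantile normalization. The median of the epididymis, seminal vesicle, adrenal and kidney list went from 5.38 to -0.35 with status OK in both tables. That filter depends on the day 3 level itself and is no check on genes at or near 0 there. Collagen calls fell from 19 to 7 under that normalization. Added after the data were seen, centring by locus span gave 2698 higher and 3139 lower genes, and leaving out genes below 1% of their level in adult cells gave 2280 and 3439. No paired analysis was possible because the columns carry no replicate numbers. The cause of these shifts was not tested. Depth could not be read from these tables, so the counting error of low values cannot be given.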
